A study of Homo sapiens with 64 samples.

Results

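The dispersed peaks were the ChIP-seq peaks of γ-tubulin, PCNA, Mcm5 and FoxM1 that lay outside a set of fixed windows in U2OS, an established cell line from a human osteosarcoma. A peak, which is a stretch of the genome where precipitated fragments were enriched over input chromatin, was counted as dispersed when it lay on chromosomes 1 to 22 or X and shared no base with any of 12 windows of 7 to 260 kb on 10 chromosomes, 727 kb in all. The members were chosen by the positions of the called peaks themselves, since the windows were set with these same lists known. The position of the dispersed peaks outside the windows is therefore not a result. By this rule 494 of 2442 peaks were dispersed (20.2%), which is 28.9% of the 1712 peaks on those chromosomes. The other 1218 peaks of those chromosomes lay in the windows, and 730 peaks lay on other sequences of the assembly.

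Chromatin came from U2OS and from a U2OS derivative with stable expression of an shRNA that targets TUBG (shTUBG U2OS). Cells grew asynchronously or had been released for 3, 7 or 9 h from thymidine applied in 2 rounds, which holds cells at the start of S phase. All 4 proteins were precipitated from U2OS, and γ-tubulin and PCNA from shTUBG U2OS. Each of the 24 peak lists stands for both labelled samples of its line, time and antibody, so a list has no replicate error, and the study speaks of the shTUBG cells as a population, with no clone named. Lists of the same line and time share their input samples and form 8 line-by-time sets, and read depth is unknown.

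γ-Tubulin nucleates microtubules at the centrosome and is also found in the nucleus. PCNA is the sliding clamp that tethers DNA polymerases at replication forks, Mcm5 is a subunit of the helicase loaded at replication origins, and FoxM1 is a transcription factor that drives genes needed for G2 and mitosis. Much of the DNA beside centromeres and near chromosome ends is repeated, and U2OS cells maintain their telomeres by recombination and not by telomerase.

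The dispersed peaks lay on all 23 chromosomes considered, but they were not spread evenly. Peaks that shared at least 1 bp were merged into 211 regions. Chromosome 4 held 70 peaks in 32 regions, chromosome 5 held 56 in 25, chromosome 9 held 55 in 9 and chromosome 18 held 41 in 9. Chromosomes 15 and 16 held 2 peaks each. Of the regions 9 (4.27%) were called in 10 or more lists, against 15.7% of all regions on these chromosomes, and those 9 regions held 148 peaks, 29.96% of the dispersed peaks. With peaks within 100 kb of each other joined, there were 147 neighbourhoods, of which 93 held a single peak and 4 held 5 or more regions each, with 91 peaks between them (18.4%). The name dispersed therefore fits the many isolated peaks, while a few sites outside the windows were themselves dense.

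FoxM1 had the most dispersed peaks of the U2OS antibodies at every time. The FoxM1 lists held 26 (asynchronous), 51 (3 h), 29 (7 h) and 85 (9 h). In the same order of times Mcm5 had 18, 35, 9 and 16, and γ-tubulin had 17, 21, 11 and 22. PCNA had 13, 11, 0 and 11, and the PCNA list at 7 h held no peak at all on chromosomes 1 to 22 and X. FoxM1 exceeded γ-tubulin by 30 ± 23.6 peaks per time (SD of the differences, n = 4 times), PCNA by 39 ± 25.8 and Mcm5 by 28.3 ± 27.6, and was higher at 4 of 4 times in each comparison. Exact permutation by sign flips, paired by time and two-sided, gave p = 0.13 in each comparison, the smallest p that 4 pairs allow, and 0.281 after Benjamini-Hochberg adjustment over 9 tests, so none of these differences passed 0.05. The lead of FoxM1 shrank among recurrent regions. Counting regions of 2 or more line-by-time sets alone (chosen after the data were seen), FoxM1 had 109 peaks against 66 for γ-tubulin, 33 for PCNA and 66 for Mcm5, and was higher at 2, 4 and 3 of the 4 times. Without the 9 h lists the sum over the remaining times was still larger for FoxM1, by 57 peaks against γ-tubulin, 82 against PCNA and 44 against Mcm5.

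**Figure D1:**
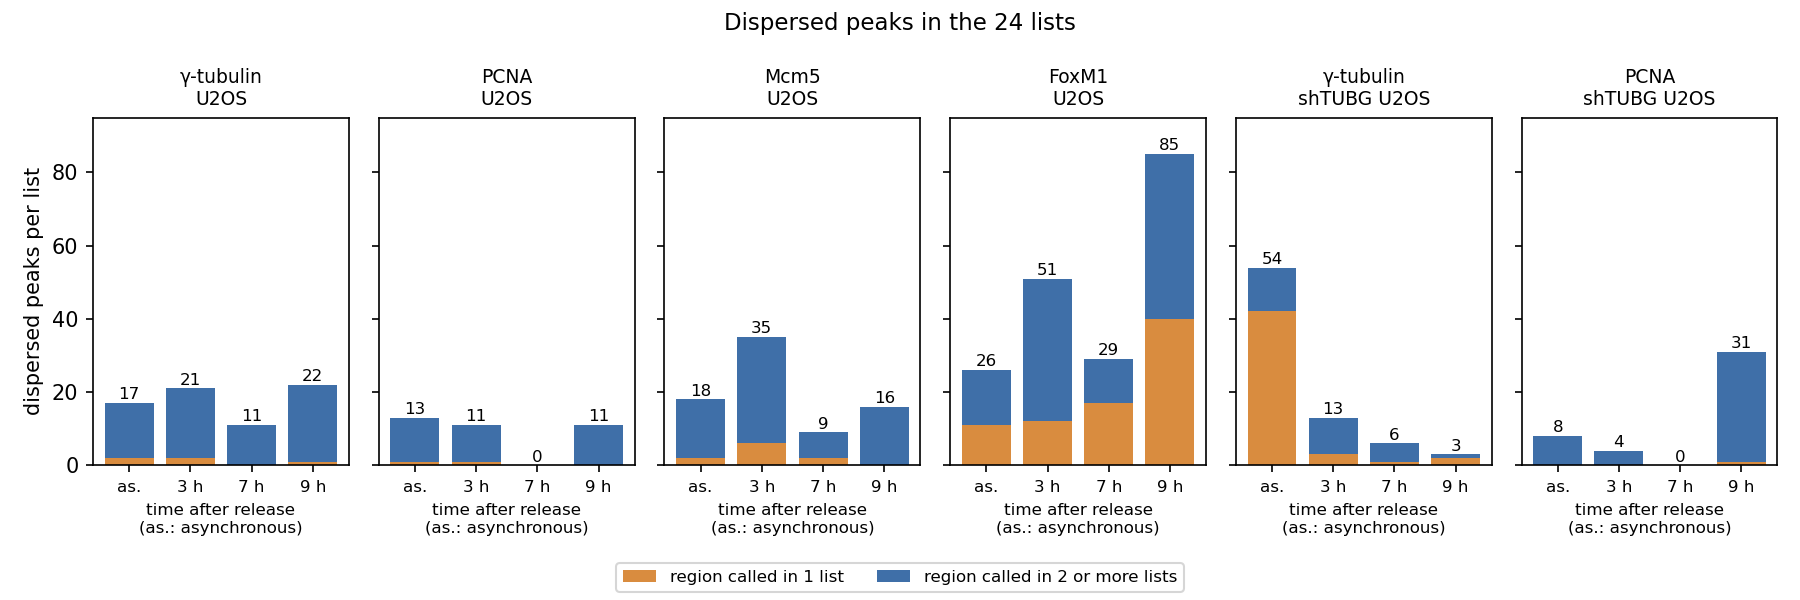
Dispersed peaks per list (vertical axis, number of peaks) by time after release for each antibody and line, with peaks in regions called in 1 list in orange and the others in blue. The tallest bar is FoxM1 at 9 h with 85 peaks, and 42 of the 54 γ-tubulin peaks of asynchronous shTUBG U2OS are orange.

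The bars for each list, split by whether any other list called the same region, show where the numbers came from. Of the 191 dispersed FoxM1 peaks 80 (41.9%) lay in regions that no other list called, and 40 of these came from the 9 h list. The same held for 10 of 78 Mcm5 peaks (12.8%), 5 of 71 γ-tubulin peaks (7.04%) and 2 of 35 PCNA peaks (5.71%) in U2OS. In shTUBG U2OS it held for 48 of 76 γ-tubulin peaks (63.2%) and 1 of 43 PCNA peaks (2.33%). FoxM1 in U2OS and γ-tubulin in shTUBG U2OS were thus the sources of most single-list regions. No such share was taken over all peaks on these chromosomes, so these counts describe the dispersed peaks alone. γ-Tubulin and PCNA had lists from both lines and FoxM1 and Mcm5 from U2OS alone, so their openings for a second call differed.

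As a share of all peaks of a list on chromosomes 1 to 22 and X, dispersed FoxM1 peaks made up 30.2%, 32.7%, 34.9% and 43.8% at the 4 times. Mcm5 gave 26.1%, 37.2%, 37.5% and 20.3%, so that FoxM1 was above Mcm5 at 2 of 4 times on this scale. The γ-tubulin share in U2OS ran from 17.9% at 9 h to 24.6% in asynchronous cells. The PCNA share in U2OS was 17.1%, 16.2% and 12.8% in asynchronous cells and at 3 and 9 h.

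In shTUBG U2OS most γ-tubulin peaks on chromosomes 1 to 22 and X were dispersed at 3 of 4 times. The asynchronous list had 54 dispersed peaks of 66 (81.8%, 95% Clopper-Pearson interval 70.4 to 90.2), the 3 h list 13 of 18 (72.2%, 46.5 to 90.3) and the 7 h list 6 of 9 (66.7%, 29.9 to 92.5). At 9 h they were 3 of 25 (12%, 2.55 to 31.2). The mean share was 58.2% against 21.3% in U2OS, a difference of 36.9 ± 28.9 percentage points (SD, n = 4 times), higher at 3 of 4 times, which did not pass the exact permutation test by sign flips (p = 0.25, adjusted p = 0.45).

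The number of dispersed γ-tubulin peaks itself was 76 in shTUBG U2OS and 71 in U2OS. It was 37 higher in asynchronous shTUBG U2OS and 8, 5 and 19 lower at 3, 7 and 9 h (mean difference 1.25 ± 24.6, exact permutation p = 1). Without the asynchronous lists the totals were 22 in shTUBG U2OS and 54 in U2OS. In the windows, γ-tubulin peaks numbered 42 in shTUBG U2OS and 268 in U2OS, with a mean difference of -56.5 ± 18.1 per time, negative at 4 of 4 times (exact permutation p = 0.13, adjusted p = 0.281). The γ-tubulin level in the shTUBG line was not measured by these lists.

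PCNA gave a different picture by time. In shTUBG U2OS it had 8, 4, 0 and 31 dispersed peaks, against 13, 11, 0 and 11 in U2OS, a mean difference of 2 ± 12.4 (exact permutation p = 1). The 9 h list was the one in which shTUBG U2OS had more, and without it the totals were 12 and 24. The dispersed share of PCNA peaks was 14.5%, 10% and 23.8% in asynchronous cells and at 3 and 9 h. At 7 h it was 0 of 15 peaks, for which the exact interval reaches 21.8%. Over the 3 times with PCNA peaks in both lines the share differed by 0.773 ± 9.09 percentage points (exact permutation p = 1, with 0.25 the smallest possible).

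**Figure D2:**
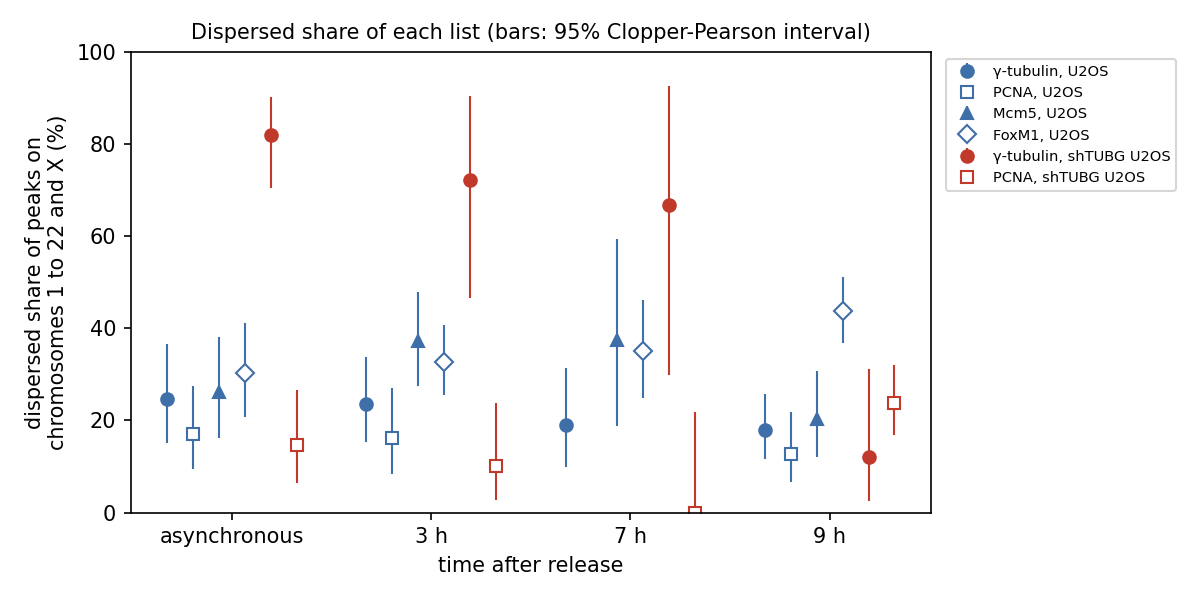
Share of each list's peaks on chromosomes 1 to 22 and X that were dispersed (vertical axis, %) by time after release, with blue marks for U2OS, red for shTUBG U2OS and vertical lines for the 95% Clopper-Pearson interval. The red circles, γ-tubulin in shTUBG U2OS, lie at 81.8%, 72.2% and 66.7% and then at 12% at 9 h.

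The plot of shares by time shows the intervals of γ-tubulin in both lines apart in asynchronous cells and at 3 h, and overlapping at 7 and 9 h. The intervals cover counting error alone. Neighbouring peaks of a list are not independent, so overlap or separation of the intervals is no test between the lines.

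Dispersed regions recurred less than the regions in the windows. Of the 211 dispersed regions 146 (69.2%) were called in 1 list, 45 in 2 to 4 lists, 11 in 5 to 9 and 9 in 10 or more. Regions in 2 or more lists were 30.8% of the dispersed regions, against 52% of all regions on these chromosomes. In the windows 13 of 120 regions (10.8%) were called in 1 list and 43 (35.8%) in 10 or more. Counted by line-by-time sets, whose inputs differ, 148 dispersed regions were called in 1 set and 63 in 2 or more. The windows were set with the positions of these calls known, so this contrast is a description and was given no test.

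**Figure D3:**
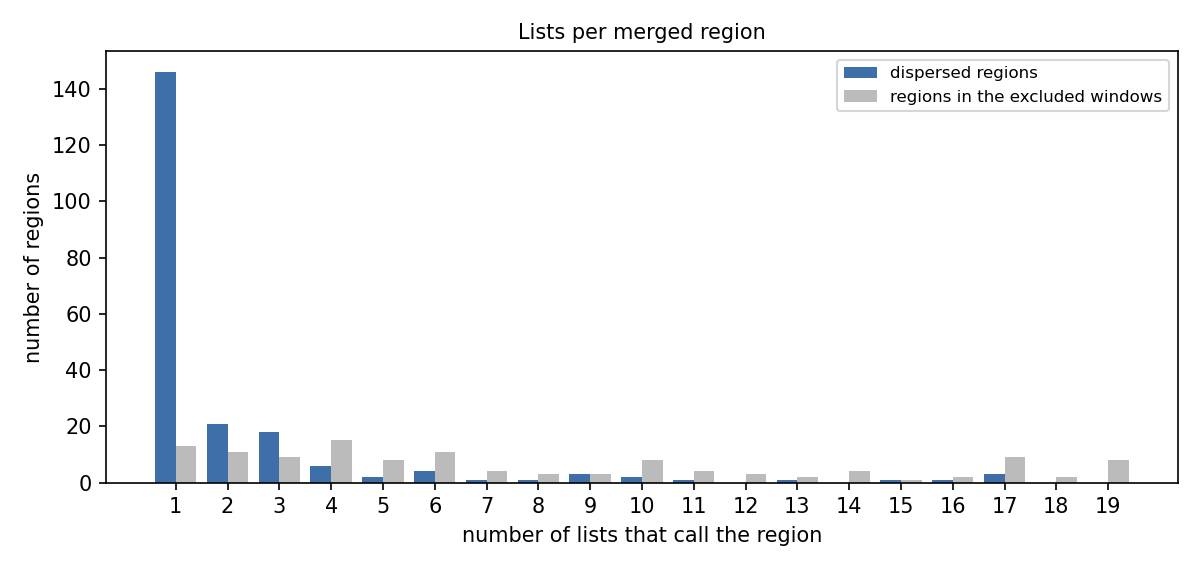
Number of merged regions (vertical axis) by the number of the 24 lists that called them (horizontal axis), for dispersed regions in blue and regions in the excluded windows in grey. The bar at 1 list holds 146 dispersed and 13 window regions, and no dispersed region was called in more than 17 lists.

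The plot of lists per region shows a second, small group of dispersed regions at 15 to 17 lists beside the single-list bar. How often a dispersed peak was found again at another time of the same antibody and line (25% of both peaks shared, different inputs) varied by antibody. For PCNA in U2OS it was 30 of 35 (85.7%, exact 95% interval 69.7 to 95.2, with 86.1% for all PCNA peaks on these chromosomes), and for γ-tubulin in U2OS 55 of 71 (77.5%, 66.0 to 86.5, all peaks 81.4%). FoxM1 gave 95 of 191 (49.7%, 42.44 to 57.1, all peaks 75%) and Mcm5 38 of 78 (48.7%, 37.2 to 60.3, all peaks 74.1%). Dispersed PCNA and γ-tubulin peaks of U2OS were thus found again about as often as all peaks of those antibodies, and dispersed FoxM1 and Mcm5 peaks in a smaller share.

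In shTUBG U2OS the share of dispersed peaks found at another time was below that of all peaks for both antibodies. For γ-tubulin 18 of 76 (23.7%, 14.7 to 34.8, all peaks 33.9%) and for PCNA 11 of 43 (25.6%, 13.5 to 41.2, all peaks 54.2%) were found at another time. Single lists weighed heavily in both values. In the asynchronous γ-tubulin list 7 of 54 were found at another time, and in the 9 h PCNA list 4 of 31.

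Between the lines at the same time, 9 of 71 dispersed γ-tubulin peaks of U2OS (12.7%, 5.96 to 22.7, all peaks 8.85%) were found in shTUBG U2OS, and 8 of 76 of shTUBG U2OS (10.5%, 4.66 to 19.7, all peaks 23.7%) in U2OS. Of these 9 peaks 6 were in asynchronous cells and 0 of 22 at 9 h. For PCNA it was 19 of 35 (54.3%, 36.7 to 71.2, all peaks 63%) and 19 of 43 (44.2%, 29.1 to 60.1, all peaks 62.5%). All 11 dispersed PCNA peaks of U2OS at 9 h were found in the shTUBG U2OS list at 9 h, which held 20 more.

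By antibody, 154 regions were called for 1 of the 4 proteins, 38 for 2, 8 for 3 and 11 for all 4. The share called for 4 was 5.21%, against 18.4% of all regions on these chromosomes, and these 11 regions held 163 peaks. For the other counts by antibody no share over all regions was taken, so they describe the dispersed regions alone. The 11 regions called for all 4 proteins included the 9 regions of 10 or more lists. The others were an end region of chromosome 12 in 9 lists and a region on chromosome 4 from 49636078 to 49636549 in 6. FoxM1 alone accounted for 85 regions on 21 chromosomes, of which 80 were in 1 list. Their 93 peaks had a median width of 218 bp (200 to 567) and a median score rank of 18.6. The score rank is the percentile of a peak's deposited score within its own list, with 100 the highest, since scores of different lists have no common scale. The lists also differ in length, from 17 to 244 peaks, so ranks are given to place a peak within its list and not to compare times or antibodies. γ-Tubulin alone accounted for 55 regions, and 44 of their 58 peaks came from asynchronous shTUBG U2OS and 5 from U2OS.

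Dispersed peaks were narrower and ranked lower than window peaks. Their median width was 263 bp (quartiles 210 and 367, range 200 to 1940), against 369.5 bp in the windows (266 and 624.2), and the dispersed median was the narrower in 17 of the 22 lists with both kinds. The narrowest width in the lists, 200 bp, was that of 53 dispersed peaks (10.7%) and 24 window peaks (1.97%). Widths over 1000 bp were reached by 19 dispersed and 173 window peaks. The median score rank was 34.9 for dispersed and 61.2 for window peaks, and it was lower for dispersed peaks in 20 of 22 lists. Within the dispersed peaks, those in single-list regions had a median width of 228.5 bp and a median rank of 21.02, and those in regions of 10 or more lists 370.5 bp and 49.6. Width and score come from the same calls as the rule, so none of these differences was tested.

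**Figure D4:**
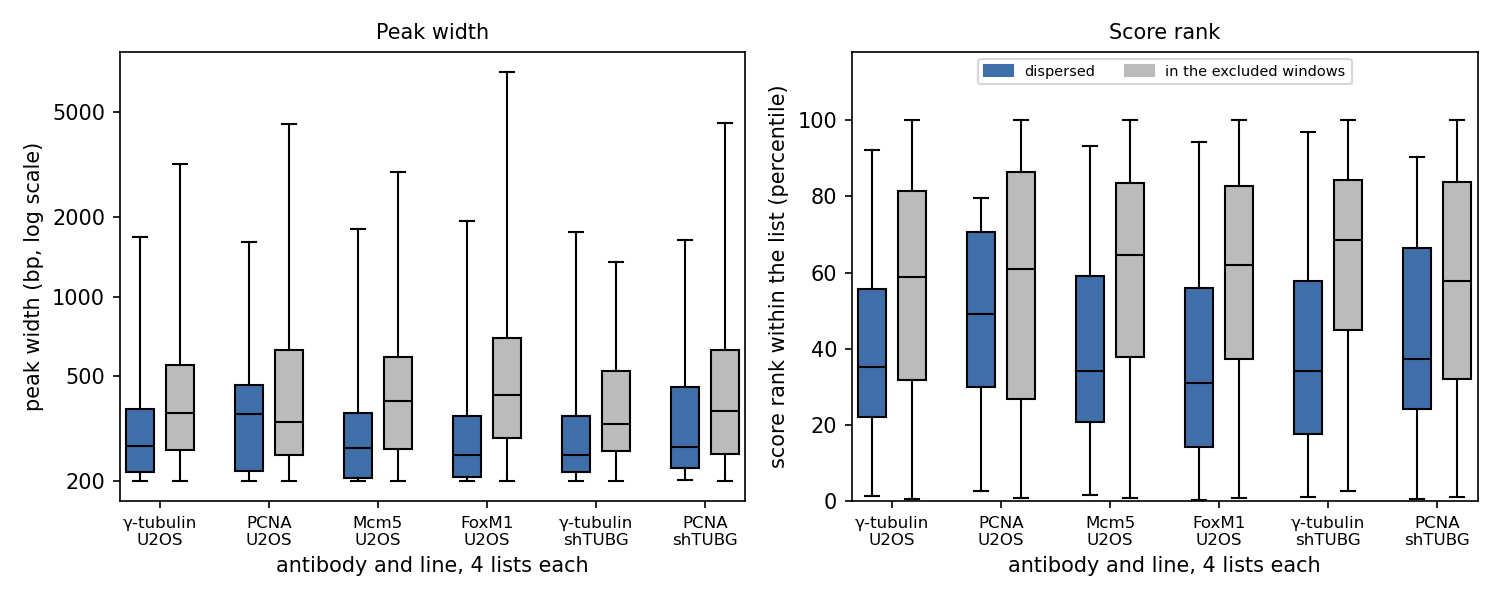
Peak width (left, bp, log scale) and score rank within the list (right, percentile) for dispersed peaks in blue and window peaks in grey, by antibody and line over 4 lists each; boxes show quartiles and medians and whiskers the full range. Over all lists the medians are 263 bp against 369.5 bp for width and 34.9 against 61.2 for rank, with wide overlap of the ranges.

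The box plots pool the lists of an antibody and line. List by list, PCNA in U2OS was the exception in width, since the dispersed median was the wider in all 3 lists that held both kinds. It was 349 against 319 bp in asynchronous cells, 359 against 344 bp at 3 h and 454 against 340 bp at 9 h. These lists held only 13, 11 and 11 dispersed peaks. The other 2 lists with a wider dispersed median were γ-tubulin at 9 h (355 against 351 bp) and Mcm5 at 7 h (332 against 269 bp), both of U2OS. At 9 h these dispersed PCNA peaks also ranked higher than the window peaks, with medians of 64.6 and 58.9. The highest rank reached by a dispersed peak was 97.0 for γ-tubulin, on chromosome 1 from 91852802 to 91853057 in shTUBG U2OS at 3 h, in a list of 33 peaks. For FoxM1 it was 94.3, on chromosome 5 from 10039 to 11840 at 9 h, for Mcm5 93.2, on chromosome 12 from 133841470 to 133841925 at 3 h, and for PCNA 90.3, on chromosome 9 from 66971010 to 66971475 in shTUBG U2OS at 9 h. The widest dispersed peak, of 1940 bp, was a FoxM1 peak at 9 h on chromosome 18 from 18518399 to 18520338.

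The 9 regions called in 10 or more lists lay on chromosomes 3, 4, 5, 9, 11 and 18. Coordinates are those of hg19, counted from 1, and gene and repeat content was not analysed here. The region on chromosome 9 from 66970993 to 66971513 (chr 9 A in the map of calls) was called in 17 lists. Its γ-tubulin ranks in U2OS were 47.5 (asynchronous), 74.8 (3 h), 42.7 (7 h) and 86.3 (9 h). Its FoxM1 ranks were 55.81, 92.1, 52.4 and 93.8, its PCNA ranks 75.4, 78.8 and 76.9 in asynchronous cells and at 3 and 9 h, and its Mcm5 ranks 42, 46.2 and 76.2 at those 3 times. γ-Tubulin and FoxM1 were thus called there at all 4 times and PCNA and Mcm5 at all but 7 h. In shTUBG U2OS the region was called for PCNA, with ranks of 60.9, 25.5 and 90.3 in asynchronous cells and at 3 and 9 h, and at no time for γ-tubulin.

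A pair of further regions on chromosome 9 had nearly the same calls. The one from 69710833 to 69711325 (chr 9 C) was in the same 17 lists, with γ-tubulin ranks in U2OS of 18.6, 67.5, 18 and 83.0 at the 4 times. The one from 67320408 to 67320946 (chr 9 B) was in 15 lists, with ranks of 37.8, 50, 5.33 and 54.9, and in shTUBG U2OS it was called for PCNA at 9 h (78.4). Both, like chr 9 A, had γ-tubulin and FoxM1 calls in U2OS at all 4 times.

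On chromosome 3, the region from 196625509 to 196625890 was in 16 lists. Its γ-tubulin ranks in U2OS were 14.7, 79.7, 2.67 and 85.0, and its PCNA ranks 69.5, 74.0 and 79.2 in asynchronous cells and at 3 and 9 h. FoxM1 gave no peak there in asynchronous cells, ranked 3.25 at 7 h and stood at 85.1 and 87.7 at 3 and 9 h. PCNA in shTUBG U2OS ranked 29.3, 35.3 and 82.6. At 7 h the region thus stood near the bottom of the γ-tubulin and FoxM1 lists of U2OS and was called in no other list.

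The region on chromosome 4 from 49151045 to 49151812 (chr 4 A), was in 10 lists. Its γ-tubulin ranks were 10.2 and 1.31 at 3 and 9 h, and its PCNA ranks in U2OS were 13.6, 10.1 and 19.6 in the asynchronous, 3 h and 9 h lists. FoxM1 ranked 43.1, 13.8 and 63.9 at 3, 7 and 9 h and PCNA of shTUBG U2OS 70.3 at 9 h, and no γ-tubulin list of shTUBG U2OS called it.

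The region on chromosome 11 from 10530634 to 10531544 was unlike the others. It was called in 13 lists, among them γ-tubulin and Mcm5 of U2OS at all 4 times, PCNA and FoxM1 only in asynchronous cells, and γ-tubulin of shTUBG U2OS in asynchronous cells and at 3 h. The best γ-tubulin rank in each U2OS list was 92.2 (asynchronous), 59.8 (3 h), 31.3 (7 h) and 78.1 (9 h). The shTUBG U2OS lists gave 86.7 (asynchronous) and 72.7 (3 h). It was the sole one of the 9 regions with any γ-tubulin call in shTUBG U2OS.

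Counted over the 9 regions and 4 times, γ-tubulin was called at 31 of 36 possible places in U2OS and at 2 of 36 in shTUBG U2OS. PCNA was called at 25 of 36 and 17 of 36. Mcm5 and FoxM1 in U2OS were called at 23 and 28 of 36. Over all 63 regions of 2 or more sets there were 252 possible places per antibody and line. γ-Tubulin had 57 calls there in U2OS and 26 in shTUBG U2OS, and PCNA had 30 and 39, so PCNA went the other way. This rested on the 9 h list of shTUBG U2OS. As peaks of these regions, PCNA had 42 in shTUBG U2OS against 33 in U2OS, higher at 1 time (9 h) and lower at 2. In the windows γ-tubulin peaks were also fewer in shTUBG U2OS (42 against 268 in U2OS), so this direction was not particular to the 9 regions. The regions were selected for many calls and 16 of the 24 lists are from U2OS, so these counts describe the regions and test nothing.

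**Figure D5:**
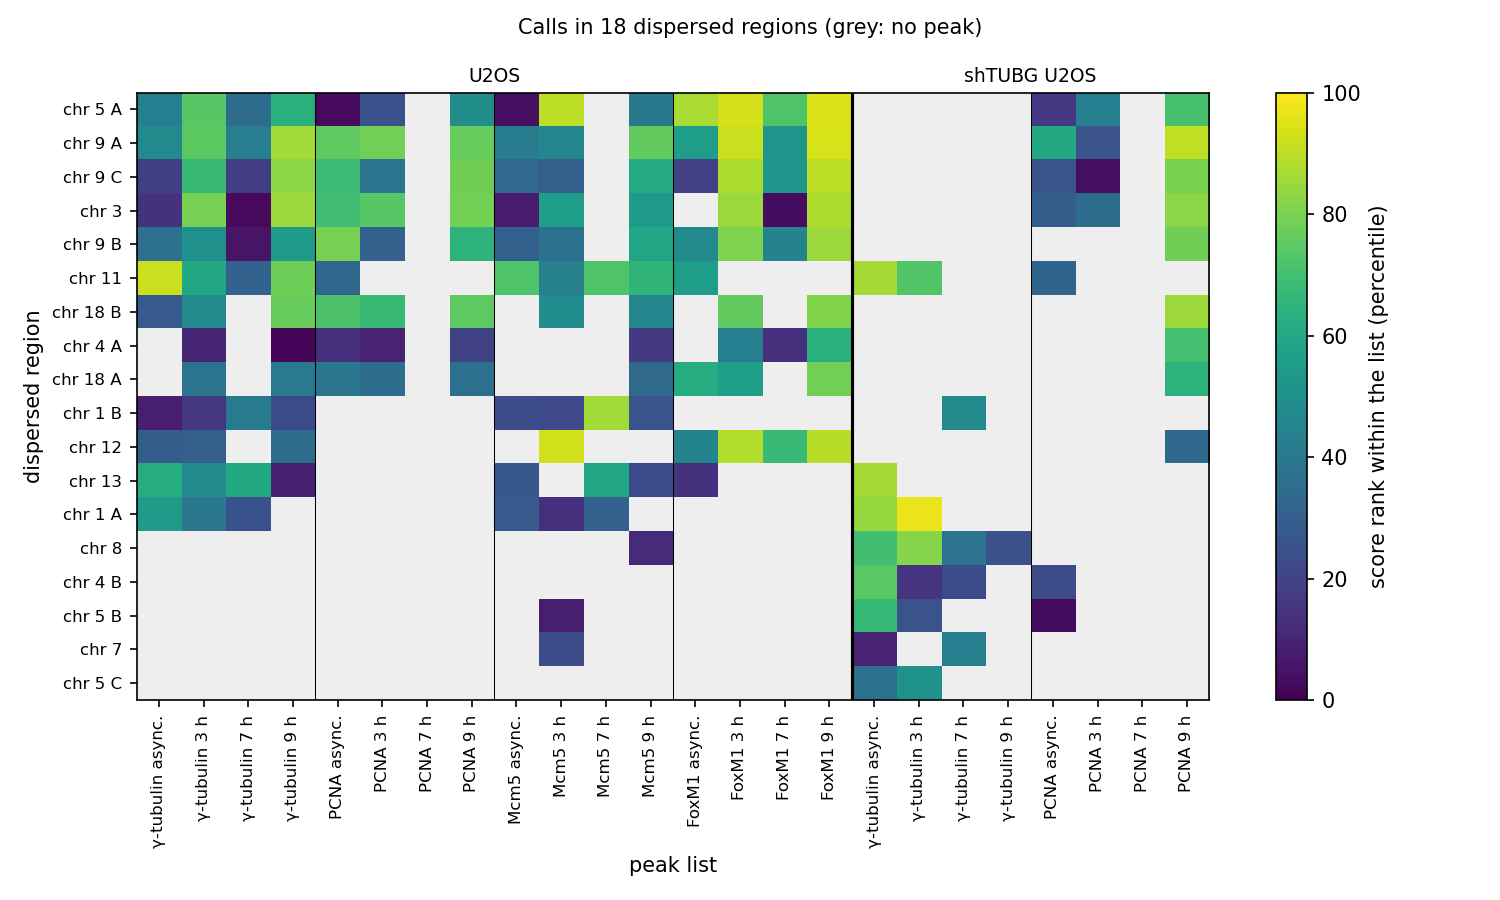
Score rank within the list (color, percentile; grey where no peak was called; best peak where a list held several) of 18 dispersed regions (rows, by chromosome, lettered by position) in the 24 lists (columns). The upper 9 rows are filled across U2OS γ-tubulin (31 of 36 cells) and nearly empty for γ-tubulin in shTUBG U2OS (2 of 36). Each of the lower 5 rows has 2 or more γ-tubulin calls in shTUBG U2OS. The lower 5 rows were picked for shTUBG U2OS calls without U2OS γ-tubulin or PCNA calls, and the upper 9 for many lists. The contrast between them thus follows in part from the choice.

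The map of calls also shows regions called for γ-tubulin and Mcm5 and not for PCNA. There were 12 such dispersed regions with 63 peaks (5.69%, against 5.14% of all regions on these chromosomes), a share near the background, and in 5 of them γ-tubulin was called in shTUBG U2OS alone. The region on chromosome 1 from 236260336 to 236260676 (chr 1 B) had γ-tubulin and Mcm5 peaks in U2OS at all 4 times and no FoxM1 peak. Its γ-tubulin ranks were 8.33, 15.8, 41.3 and 22.6, and its Mcm5 ranks 23.5, 21.97, 86.2 and 26.1. On chromosome 13, from 110076388 to 110076764, γ-tubulin ranked 61.8, 48.0, 60.7 and 9.15 in U2OS and 86.7 in asynchronous shTUBG U2OS. On chromosome 1 from 91852775 to 91853144 (chr 1 A), γ-tubulin ranked 54.9, 39.8 and 25.3 in U2OS in asynchronous cells and at 3 and 7 h, and 84.0 and 97.0 in the asynchronous and 3 h lists of shTUBG U2OS. Of the 12 regions 7 were called for γ-tubulin in U2OS and 10 in shTUBG U2OS. γ-Tubulin and Mcm5 lists of a time share their input, so their joint calls were given no test.

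A set of 6 dispersed regions (2.84%, against 2.42% of all regions on these chromosomes) was called in 2 or more shTUBG U2OS lists and in no γ-tubulin or PCNA list of U2OS. The share is near the background, and the regions were picked for this pattern. The one with the most lists, on chromosome 8 from 70602291 to 70602557, was called for γ-tubulin in shTUBG U2OS at all 4 times, with ranks of 69.7 (asynchronous), 81.8 (3 h), 38.1 (7 h) and 24.6 (9 h). It also held an Mcm5 peak of U2OS at 9 h, with a rank of 12.4. On chromosome 4, from 167501217 to 167501815 (chr 4 B), γ-tubulin ranked 74.5, 15.2 and 22.6 in the asynchronous, 3 h and 7 h lists of shTUBG U2OS, and PCNA ranked 22.99 in asynchronous cells. The others among the 5 named lay on chromosome 7 from 56438624 to 56439796 and on chromosome 5 from 17585121 to 17585761 and from 17593872 to 17594564. The reverse pattern, 2 or more γ-tubulin or PCNA lists of U2OS and no shTUBG U2OS list, was seen in 1 dispersed region (0.474%, background 0.906%), on chromosome 8 from 43092774 to 43093150. γ-Tubulin ranked 28.9 and 34.6 there and FoxM1 38.6 and 31.8, each at 3 and 9 h.

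The 4 neighbourhoods with 5 or more regions fell into different patterns. On chromosome 5 from 17518296 to 17599509, 13 regions held 20 peaks, of which 13 were γ-tubulin peaks of asynchronous shTUBG U2OS, with ranks of 26.6 to 76.6. Another 4 were γ-tubulin peaks of shTUBG U2OS at 3 h and 1 a PCNA peak of asynchronous shTUBG U2OS. U2OS gave 2 Mcm5 peaks there, with ranks of 5.61 and 8.33, and no γ-tubulin peak. Chromosome 5 held 16 of the 54 dispersed γ-tubulin peaks of asynchronous shTUBG U2OS, chromosome 8 held 10 and chromosome 19 held 7. Those on chromosome 19 were all in regions that no other list called, and 4 of them lay from 37766232 to 37786754.

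In the other 3, FoxM1 of U2OS at 9 h gave the most peaks of any list, and PCNA of shTUBG U2OS at 9 h was called too. On chromosome 4 from 49634718 to 49654549, 13 regions held 12 FoxM1 peaks at 9 h, 5 at 3 h and 6 PCNA peaks of shTUBG U2OS at 9 h. From 49110266 to 49156689 on the same chromosome, the numbers were 9, 3 and 6, in 9 regions. On chromosome 2 from 89872094 to 89879983 they were 5, 4 and 4, in 5 regions. In all 3 places U2OS also held PCNA peaks, with at most 2 per list, and at most 2 γ-tubulin peaks per list.

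Of the 31 dispersed PCNA peaks of shTUBG U2OS at 9 h, 30 (96.8%) shared at least 1 bp with a FoxM1 peak of U2OS at 9 h, against 99.2% of all peaks of that PCNA list on these chromosomes, so the share was near the background. With PCNA of U2OS at 9 h it was 11 (35.5%, all peaks 62.3%). Seen from FoxM1, 28 of its 85 dispersed peaks at 9 h (32.9%, all peaks 57.2%) shared a base with these PCNA peaks. The inputs of these lists differ. The most frequent combinations of lists were FoxM1 at 3 and 9 h with PCNA of shTUBG U2OS at 9 h, in 8 regions, and FoxM1 at 9 h with that PCNA list, in 7 regions. Chromosome 4 held 13 of the 31 peaks.

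On chromosome 18, 34 peaks of 12 lists lay in a pair of adjacent regions, from 18517125 to 18517755 (chr 18 A) and from 18518370 to 18520338 (chr 18 B). γ-Tubulin of U2OS gave 1 (asynchronous), 5 (3 h), 0 (7 h) and 3 (9 h) peaks there. PCNA of U2OS gave 3 peaks each in the asynchronous, 3 h and 9 h lists, and PCNA of shTUBG U2OS 4 peaks at 9 h with a best rank of 85.5. No list at 7 h held a peak in either region.

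Within 100 kb of a chromosome end lay 53 dispersed peaks in 11 regions. FoxM1 gave 23 of them, with 4 (asynchronous), 8 (3 h), 4 (7 h) and 7 (9 h). It also gave 191 of the 494 dispersed peaks, so its share at the ends was near its share of all dispersed peaks. Mcm5 gave 11, of which 8 were at 3 h, γ-tubulin of U2OS gave 9 and PCNA of U2OS gave 3. In shTUBG U2OS there were 5 PCNA peaks and 2 γ-tubulin peaks. FoxM1 at 3 h and Mcm5 at 3 h had the most end peaks of the lists, 8 each, out of 51 and 35 dispersed peaks.

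The most called end region, on chromosome 5 from 10027 to 11860 (chr 5 A), was in 17 lists. FoxM1 ranked 87.2 (asynchronous), 93.6 (3 h), 72.4 (7 h) and 94.3 (9 h) there. The best γ-tubulin ranks in U2OS were 43.1, 74.0, 35.3 and 63.4. PCNA ranked 2.54, 25 and 49.2 in asynchronous cells and at 3 and 9 h in U2OS, and at best 16.7, 43.1 and 71.0 in shTUBG U2OS. Mcm5 had no peak at 7 h, and its best ranks in the other 3 lists were 4.08 (asynchronous), 90.2 (3 h) and 39.9 (9 h). γ-Tubulin of shTUBG U2OS gave no peak in this region.

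The end of chromosome 12, from 133841460 to 133841949, was called in 9 lists, with FoxM1 ranks of 45.0, 88.6, 67.5 and 89.3 and an Mcm5 rank of 93.2 at 3 h. The end of chromosome X, from 155259977 to 155260438, was called in 6 lists, with FoxM1 ranks of 12.02, 88.1, 55.3 and 91.8. The end regions of chromosomes 5, 12 and X were thus called for FoxM1 at all 4 times.

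Exactly an Mcm5 peak at 3 h and FoxM1 peaks at 3 and 9 h were held by 6 dispersed regions. Of these, 4 were end regions. They lay on chromosome 1 from 10032 to 10308, on chromosome 2 from 243152503 to 243152718, on chromosome 7 from 10037 to 10254 and on chromosome 12 from 95461 to 95831. Across them Mcm5 ranked from 20.1 to 79.5, FoxM1 between 6.44 and 28.5 at 3 h, and between 24.8 and 70.9 at 9 h. Another, on chromosome 1 from 249240397 to 249240602, held Mcm5 and FoxM1 peaks at 3 h. Chromosome 7 from 20227 to 20527 held FoxM1 peaks of asynchronous cells and 7 h, with ranks of 64.3 and 87.8. On chromosome 18, the regions from 96892 to 97168 and from 97255 to 97454 held the 2 γ-tubulin end peaks of asynchronous shTUBG U2OS.

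The dispersed peak nearest to a window, a γ-tubulin peak of asynchronous shTUBG U2OS on chromosome 21 from 9699891 to 9700090, was 119910 bp away with a rank of 8.51. The window peak nearest to the edge of its window, a γ-tubulin peak of asynchronous U2OS on chromosome 1 from 564625 to 565281, lay 624 bp inside with a rank of 34.3. The end peak farthest from its end lay 97254 bp away, on chromosome 18 from 97255 to 97454 with a rank of 1.06. The nearest peak beyond the limit was a FoxM1 peak at 3 h, 109982 bp from the end on chromosome 4 from 191043880 to 191044294, with a rank of 83.4. Of the 494 peaks 9 lay within 1 Mb of a window.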

How the data were processed

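ChIP-seq of 64 samples in 32 groups of 2 (48 immunoprecipitates, 16 inputs) was summarised by the authors in 24 peak lists. Per the labels' processing notes from the submitters, Bowtie2 2.1.0, SAMtools, MACS2 and hg19 were used. How the 2 samples and the input of a list were combined was not given in the sources used here. The lists deposited by the authors hold positions and an integer score that no source used here explains, so the score was used as a rank within its whole list.

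Peak positions were compared in Python 3.11.15 with numpy 2.4.6, scipy 1.17.1 and pandas 2.3.3, and figures were drawn with matplotlib 3.10.9. Regions were merged at 1 bp and found again at 25% of both peaks. Chromosome ends are those of the public hg19 assembly. Lists were compared over times by exact permutation tests (sign flips), adjusted over 9 tests by Benjamini-Hochberg with a threshold of 0.05. The test and the overlap functions were tested on simulated data. Shares carry 95% Clopper-Pearson intervals, which cover counting error only, and neighbouring or recurring peaks are not independent. Regions named were all end regions, the 10 other regions in the most lists, up to 5 regions in 2 or more lists of 1 line and in none (γ-tubulin, PCNA) of the other, regions of 4 antibodies, the top-ranked peak per antibody and the widest peak. Neighbourhoods and the combinations of lists and antibodies were chosen after their values were seen. The members and lists were chosen with earlier results of these data known. Alternatives varied membership, score, merging, overlap, end distance and times. Reads, inputs and gene content were not used here.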

Additional observations from a re-analysis of the deposited data

Results flagged for a closer look

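The difference between lines in the number of dispersed γ-tubulin peaks (shTUBG U2OS minus U2OS) went opposite ways at different times. The values were 37 (asynchronous), -8 (3 h), -5 (7 h) and -19 (9 h). With 1 list per line and time, no test of times against each other was run, so the difference was not tested. Of the 54 peaks of asynchronous shTUBG U2OS, 42 lay in regions that no other list called.

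For PCNA the same difference was -5 (asynchronous), -7 (3 h), 0 (7 h) and 20 (9 h), so that 9 h went the opposite way. This was not tested either. Of the 31 peaks of shTUBG U2OS at 9 h, 13 lay on chromosome 4.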

How the results depend on the processing

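Of 75 alternative values for 21 results, 70 kept their direction or, for values with no test, were not counted as moved, but some of these differed in size. For example, the number of dispersed regions was 158 with peaks within 10 kb merged, in place of 211. The side of the threshold was fixed in advance, since no test with so few pairs was able to pass it, so it was no check of these results. The total of γ-tubulin peaks, 5 higher in shTUBG U2OS, reversed to -38 when regions called in 2 or more line-by-time sets alone were counted. There were then 28 against 66 peaks, lower in 4 of 4 pairs, a filter chosen after the data were seen. Since 16 of the 24 lists are from U2OS, peaks of U2OS had more ways to pass it, so this reversal is a description. With times left out the total ran from -32 (without the asynchronous lists) to 24. The total of PCNA peaks, 8 higher, ran from -12 (without 9 h) to 15. The excess of FoxM1 ran from 57 to 111 over γ-tubulin, 82 to 143 over PCNA and 44 to 105 over Mcm5 with times left out. It was smaller among peaks at or above the list median (38, 42 and 34) and among regions of 2 or more sets (43, 76 and 43). The PCNA total was 1 higher with scores at or above the list median and 2 higher with peaks within 1000 bp merged. The causes were not tested. The number of dispersed peaks was 165 with scores at or above the list median in place of 494. That filter removes low scores, and the median score rank of dispersed peaks was 34.9. With 50% overlap, 10.5% of γ-tubulin peaks of shTUBG U2OS were found at another time in place of 23.7%, and the reason was not tested.

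No paired analysis was possible because a single list stands for the pair of labelled samples of a group and its peaks bear no replicate number, and leaving out a sample was not possible for the same reason. Lists were paired by time instead. Read depth is unknown. At 7 h PCNA left too few peaks to compare. With 4 pairs of lists no test was able to pass 0.05, and missing it does not show that lists were alike.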
